A study of Mus musculus with 18 samples.

Results

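Transcripts of the precursors of sensory and injury neuropeptides were followed in cultured neurons of the dorsal root ganglion (DRG), which holds the cell bodies of sensory nerves beside the spinal cord. The genes were chosen by symbol from a list of 10: Npy, Gal, Vip, Adcyap1, Calca, Calcb, Tac1, Sst, Nppb and Nts. Of these, 9 had a row in the deposited table of 17198 genes, and Vip was not analysed here. The list sets injury-induced peptides (Npy, Gal, Vip and Adcyap1) against resting sensory peptides (Calca, Calcb, Tac1, Sst, Nppb and Nts). It was chosen with earlier results of these data known, so its counts beside those of all genes are descriptive. Wild-type (WT) cultures were compared with cultures heterozygous (HET) for the Dynlrb1(tm1a/+) genotype at 12, 24 and 48 h, with 3 biological repeats in each of 6 groups, 18 samples in all. Dynlrb1 is a roadblock-type light chain of dynein, which moves cargo along microtubules toward the cell body. The tm1a allele is a targeted insertion that interrupts its gene, and HET cells keep a wild-type copy. All groups are unsorted mouse cultures, and strain, age and sex are not given in the sources used here. The labels do not say whether the repeats came from separate animals, so p-values measure the spread between these cultures.

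Neuropeptides are cut from larger precursor proteins, packed into dense-core vesicles in the cell body and carried along the axon to the terminals. Resting peptidergic nociceptors, the neurons that sense painful stimuli, make calcitonin gene-related peptide and substance P, and a small class of itch neurons makes natriuretic polypeptide b with somatostatin. After the peripheral axon is cut, DRG neurons are known to lower several of these and to induce galanin, neuropeptide Y, vasoactive intestinal peptide and PACAP. Placing DRG neurons in culture also cuts their axons. Whole cultures were sequenced, so fewer cells of a type and less RNA per cell cannot be told apart in any result given here.

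The values are normalized counts made by the authors, and the sequencing depth behind them is unknown. Dynlrb1 ranged from 5229 to 6674 normalized counts in the 9 WT cultures and from 2716 to 4087 in the 9 HET cultures, with no overlap. The cultures held many more neuronal than other marker transcripts: 12 DRG neuron markers summed to between 5977 and 8783 FPKM (a value per length and library total), 8 glial markers to between 237 and 845, and 5 fibroblast markers to between 37.7 and 134. The library HET 48 h replicate 3 stood apart. Over all genes it differed from the other HET 48 h cultures by a root-mean-square log2 difference of 0.580, and from the HET 12 h and 24 h group means by 0.472 and 0.419, whereas each of the other 5 cultures at 48 h was closest to its own group. Its summed level of 4 measured neutrophil markers was 65.9 FPKM, against 3.68 to 7.53 in the other 48 h cultures, and that of 3 Mrgprd neuron markers 70.6 against 4.02 to 24.8. The part of these in its peptide values was not tested.

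Promoter sequences are shown for the 3 precursors whose transcripts rose in WT cultures (Npy, Adcyap1 and Nts), and a short site is shown for Sst, which had the largest decrease among the 9. They come from RefSeq on GRCm38.p6, the build also called mm10, read 5′ to 3′ on the gene's strand. The 3 promoter stretches end before the first annotated transcript start. The Sst site lies before the RefSeq start but within the span of the GENCODE gene, which starts farther upstream. Capitals mark matches to the cAMP response element TGACGTCA or its core TGACGT, or to the AP-1 letters TGANTCA, on either strand. The Npy stretch lies at chr6:49822460-49822709 (+), that of Adcyap1 at chr17:93198767-93199016 (+), that of Nts at chr10:102490487-102490668 (-) and the Sst site at chr16:23890874-23890903 (-).
Npy: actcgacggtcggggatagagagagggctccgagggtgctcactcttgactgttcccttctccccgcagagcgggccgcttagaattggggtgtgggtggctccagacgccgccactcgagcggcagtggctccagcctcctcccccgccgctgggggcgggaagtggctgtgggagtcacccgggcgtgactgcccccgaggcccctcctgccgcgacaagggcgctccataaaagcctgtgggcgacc
Adcyap1: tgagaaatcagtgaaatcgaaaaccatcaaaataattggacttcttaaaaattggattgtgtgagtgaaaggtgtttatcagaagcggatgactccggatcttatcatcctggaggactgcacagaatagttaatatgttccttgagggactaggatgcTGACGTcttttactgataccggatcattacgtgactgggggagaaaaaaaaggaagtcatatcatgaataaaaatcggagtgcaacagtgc
Nts: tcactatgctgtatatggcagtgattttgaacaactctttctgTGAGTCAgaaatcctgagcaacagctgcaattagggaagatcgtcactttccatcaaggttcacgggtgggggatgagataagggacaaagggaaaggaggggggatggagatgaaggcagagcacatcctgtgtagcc
Sst: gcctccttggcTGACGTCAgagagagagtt

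In windows of 300 bases around the RefSeq start, TGACGTCA was in 1.79% of 32851 mouse promoters, its core TGACGT in 7.51% and TGANTCA in 7.81%. The full element, which contains the core, was found in Sst, 48 bases before its RefSeq start. The core alone was found in Adcyap1, 91 bases before the start of the first of its windows, and in the window of Vip. Nts held TGAGTCA 207 bases before its start. None of these letters occurred in the windows of Npy, Gal, Calca, Tac1 or Nppb, and Calcb was not searched. Of the genes shown, Sst fell and Adcyap1 and Nts rose, each with a different kind of match, and Npy rose without one. Any link between these matches and the changes was not tested.

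In WT cultures the precursors moved in both directions between 12 and 48 h. Of the 9 measured, 8 passed the test (limma, adjusted p under 0.05 over all 17198 genes): Npy, Adcyap1 and Nts rose and Calca, Calcb, Tac1, Sst and Nppb fell, while Gal did not pass. The background was high, as 47.1% of all genes passed, 30.0% higher and 17.1% lower. By class, 2 of the 3 measured injury-induced peptides rose, and of the 6 resting peptides 5 fell and 1, Nts, rose. The median log2 fold change was -0.90 over the 9 precursors and 0.11 over all genes. On the authors' other set of columns, the median of all genes was 0.01, and the same number of precursors passed.

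Npy, the precursor of neuropeptide Y, had the largest positive log2 fold change of all genes tested from 12 to 48 h in WT. In WT it was at 7.43, 24.4 and 34.8 normalized counts at 12 h, at 89.9, 62.2 and 66.8 at 24 h, and at 887, 1297 and 415 at 48 h. In HET it was at 10.1, 4.07 and 22.1 at 12 h, at 127, 40.2 and 52.0 at 24 h, and at 229, 155 and 29.5 at 48 h. The WT groups did not overlap at any time, and all 3 WT cultures at 48 h lay above every HET culture. From 12 to 48 h in WT, Npy rose 39.7-fold, or by 5.31 on the log2 scale (SE 0.72), with a limma adjusted p of 5.58e-05. In WT the change from 12 to 24 h was 1.89 (adjusted p = 0.138), and from 24 to 48 h Npy rose by 3.42 (adjusted p = 0.00460).

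Adcyap1 encodes PACAP, a peptide that acts through cAMP-coupled receptors. In WT it was at 12747, 14753 and 13912 normalized counts at 12 h, at 20838, 21518 and 19301 at 24 h, and at 28238, 32950 and 31029 at 48 h. The HET values were 16923, 10247 and 13814 at 12 h, 23171, 17399 and 22342 at 24 h, and 17937, 19182 and 14618 at 48 h. Replicates were close together in WT and the WT times did not overlap, whereas the HET cultures at 48 h lay below all WT cultures of 24 and 48 h. In WT, Adcyap1 rose by 0.58 on the log2 scale from 12 to 24 h (SE 0.15, limma adjusted p = 0.0466) and by 1.15 from 12 to 48 h, 2.23-fold (adjusted p = 4.66e-05).

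Gal, the precursor of galanin, is a classical injury-induced peptide. In WT it was at 935, 1254 and 874 normalized counts at 12 h, at 1020, 1694 and 1295 at 24 h, and at 1035, 1217 and 1394 at 48 h. The HET cultures were at 1521, 822 and 995 at 12 h, at 1476, 863 and 1570 at 24 h, and at 873, 1044 and 972 at 48 h. All groups overlapped, WT and HET at 48 h by a single culture each (1035 and 1044). The log2 fold change from 12 to 48 h in WT was 0.26 (95% interval -0.26 to 0.78, limma adjusted p = 0.406). Gal was the only measured injury-induced precursor with no call, and it was already at 822 counts or more in every culture at 12 h.

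Nts encodes the precursor of neurotensin and neuromedin N. In WT it was at 1331, 1392 and 1392 normalized counts at 12 h, at 3189, 2683 and 3880 at 24 h, and at 8162, 13236 and 7265 at 48 h. In HET it was at 1649, 1289 and 1931 at 12 h, at 4184, 2628 and 4708 at 24 h, and at 5001, 6671 and 2947 at 48 h. The times did not overlap in WT, while in HET the 24 and 48 h values overlapped. In WT, Nts rose by 1.23 from 12 to 24 h (SE 0.28, limma adjusted p = 0.0273) and by 2.75 from 12 to 48 h, 6.72-fold (SE 0.28, adjusted p = 2.23e-05), which placed it at rank 11 of all genes by p. In the authors' deposited table its FDR for that comparison was 1.41e-20.

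Calca and Calcb encode the alpha and beta forms of calcitonin gene-related peptide, and Calca also encodes calcitonin, which a value per gene does not separate. In WT, Calca was at 38381, 47276 and 36276 normalized counts at 12 h, at 38717, 31248 and 40444 at 24 h, and at 21030, 18840 and 25611 at 48 h. HET values of Calca were 42058, 55269 and 45687 at 12 h, 31761, 39800 and 40910 at 24 h, and 21924, 29150 and 43179 at 48 h. The WT cultures at 48 h lay below all WT cultures of the earlier times, and the highest HET value at 48 h, that of replicate 3, lay among the 12 h values. From 12 to 48 h in WT, Calca fell by 0.90 on the log2 scale (SE 0.20, limma adjusted p = 0.00153).

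Calcb in WT was at 7529, 10326 and 6882 normalized counts at 12 h, at 8593, 5664 and 6849 at 24 h, and at 2215, 1904 and 3714 at 48 h. In HET it was at 10399, 13940 and 10194 at 12 h, at 5625, 7297 and 7773 at 24 h, and at 3658, 4241 and 13294 at 48 h. WT values at 48 h were below all earlier WT values, and HET replicate 3 at 48 h was at the level of the 12 h cultures. Calcb fell by 1.70 in WT from 12 to 48 h (SE 0.36, limma adjusted p = 0.00118). The transcripts of the pair share a run of 61 bases, and 0.952% of the 50-base words of Calcb occur in Calca. How reads shared by the pair were counted is not given in the sources used here, so the split between them is uncertain to that extent.

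Tac1 encodes the precursor of substance P and neurokinin A. In WT it was at 7007, 10248 and 9056 normalized counts at 12 h, at 7541, 5376 and 7118 at 24 h, and at 2841, 1914 and 3722 at 48 h. HET cultures held 9110, 14934 and 11990 at 12 h, 5224, 8095 and 7002 at 24 h, and 3968, 4648 and 11216 at 48 h. The 3 WT cultures at 48 h lay below every other culture, and HET 48 h replicate 3 was at the level of 12 h. In WT, Tac1 fell by 1.67 from 12 to 48 h (SE 0.32, limma adjusted p = 5.74e-04).

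Sst encodes somatostatin and Nppb natriuretic polypeptide b, both made by itch neurons. In WT, Sst was at 138, 245 and 165 normalized counts at 12 h, at 110, 95.8 and 107 at 24 h, and at 22.0, 12.7 and 24.9 at 48 h. In HET, Sst was at 216, 519 and 258 at 12 h, at 105, 153 and 171 at 24 h, and at 35.3, 57.7 and 208 at 48 h. The 3 WT cultures at 48 h were the lowest of all 18. Between 12 and 48 h in WT, Sst fell by 3.15 on the log2 scale (SE 0.48, limma adjusted p = 1.17e-04), to 0.113 of its level at 12 h.

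Nppb in WT was at 122, 202 and 167 normalized counts at 12 h, at 129, 95.9 and 152 at 24 h, and at 62.4, 32.9 and 61.3 at 48 h. HET values of Nppb were 115, 496 and 267 at 12 h, 96.5, 151 and 201 at 24 h, and 50.9, 97.3 and 200 at 48 h. WT 48 h did not overlap with the earlier WT times, and the HET cultures of different times overlapped. Nppb fell by 1.66 in WT from 12 to 48 h (SE 0.49, limma adjusted p = 0.0109).

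**Figure D1:**
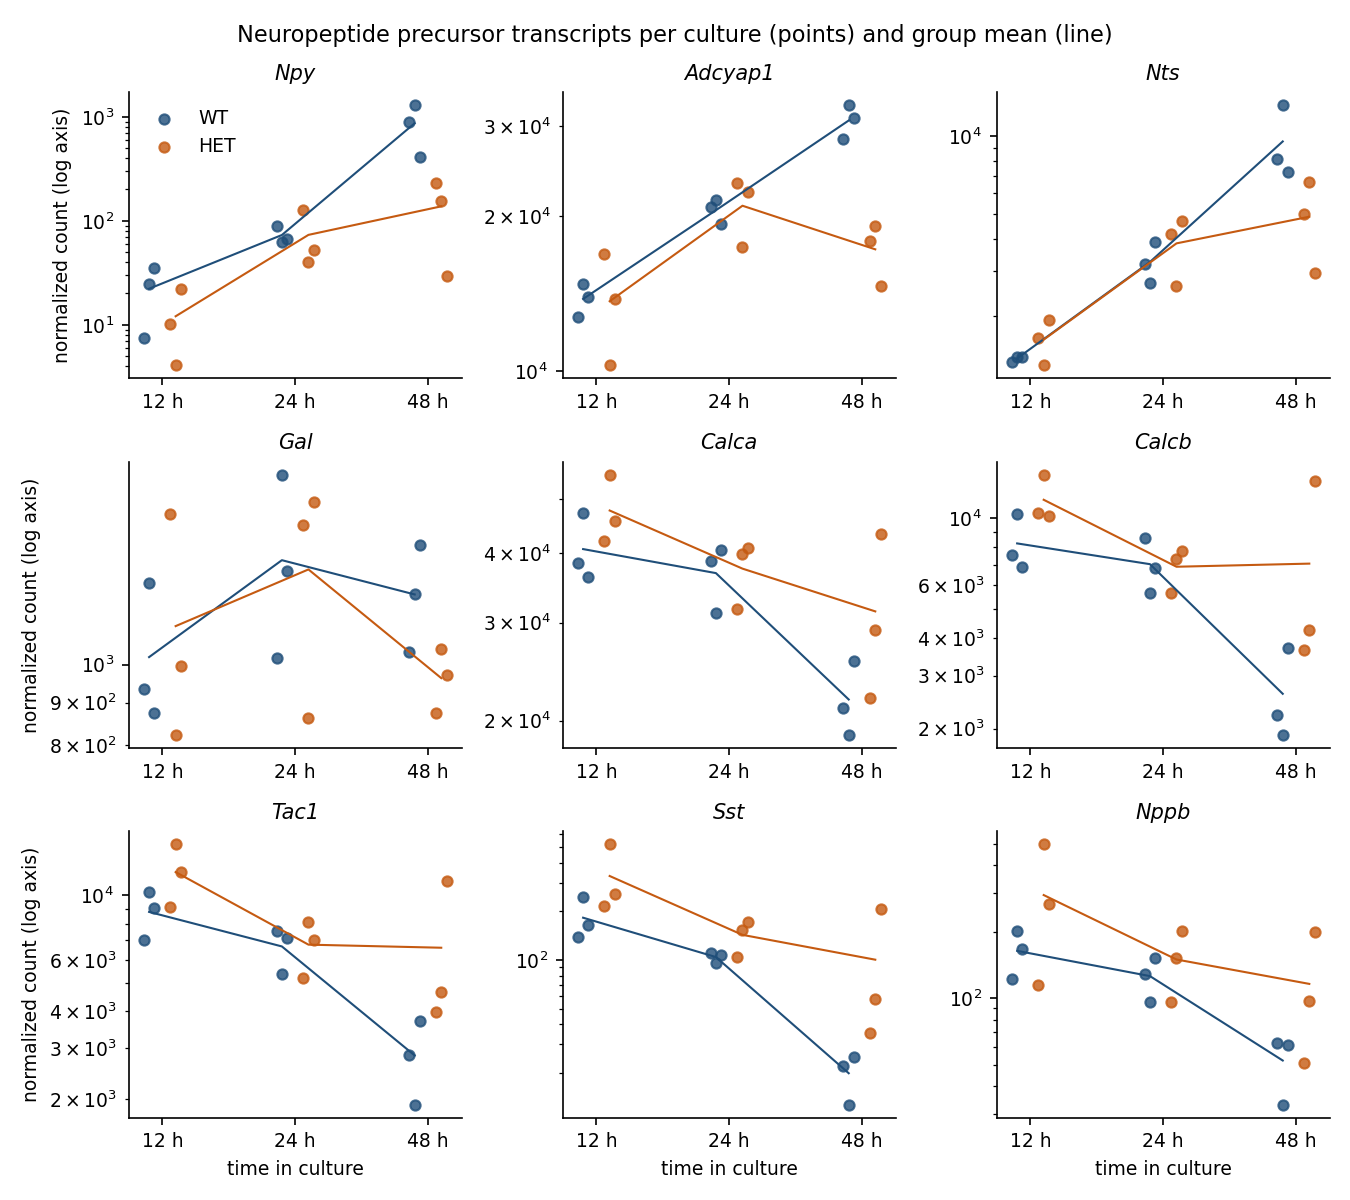
Normalized counts (log axis) of the 9 measured precursors in each culture at 12, 24 and 48 h, with WT in blue, HET in orange and lines through the group means. Npy, Adcyap1 and Nts climb with time in WT and the calcitonin gene-related peptide genes, Tac1, Sst and Nppb descend, and at 48 h HET replicate 3 lies near the earlier values of most genes.

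The shorter interval held fewer calls. Between 12 and 24 h in WT, 2 of the 9 passed, Adcyap1 and Nts, both higher, against 3.62% of all genes (2.96% higher). With any of the 6 WT cultures of these times left out, 0 passed (limma), although 3 of 9 had an unadjusted p under 0.05 with all cultures, against 21.4% of all genes. Between 24 and 48 h in WT, 7 passed against 27.7% of all genes (17.4% higher and 10.3% lower): Npy, Adcyap1 and Nts were higher and Calca, Calcb, Tac1 and Sst lower. Without WT 48 h replicate 2 that number was 4, and the share of all genes in that fit is not given here.

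Between 12 and 24 h, Npy (neuropeptide Y), Adcyap1 (PACAP) and Nts (neurotensin) rose in HET (log2 fold changes 2.59, 0.64 and 1.22; limma adjusted p = 0.0200, 0.00906 and 0.00695), and 0 of the other 6 passed, against 18.9% of all genes (13.1% higher). Between 12 and 48 h, 5 of 9 passed against 14.2% of all genes (10.6% higher and 3.62% lower). Npy rose by 3.24 (SE 0.72, adjusted p = 0.0154) and Nts by 1.53 (SE 0.28, adjusted p = 0.0121). Calca fell by 0.65, Tac1 fell by 0.99 and Sst fell by 2.01 (adjusted p = 0.0390, 0.0473 and 0.0178).

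Adcyap1 changed by 0.36 in HET from 12 to 48 h (adjusted p = 0.117), Calcb by -0.95 (adjusted p = 0.0823), Nppb by -1.30 (adjusted p = 0.0797) and Gal by -0.16 (adjusted p = 0.680). Without HET 48 h replicate 3, 8 of 9 passed, 3 higher and 5 lower, the exception being Gal: the changes were then 4.12 for Npy, 1.85 for Nts, 0.47 for Adcyap1, -0.91 for Calca, -1.53 for Calcb, -1.45 for Tac1, -2.74 for Sst and -1.80 for Nppb. Without HET 12 h replicate 2, HET 48 h replicate 1 or HET 48 h replicate 2 the count was 0, and without HET 12 h replicate 5 it was 3. The share of all genes called with a culture left out is not given here. These leave-out counts, that of 8 included, therefore cannot be read as particular to the precursors. Between 24 and 48 h in HET, 0 of 9 passed (limma; also 0 at an unadjusted p under 0.05), against 2.49% of all genes and 19.1% unadjusted, and the log2 fold changes ran from -0.89 for Sst to 0.65 for Npy. Without HET 48 h replicate 3, 3 passed.

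**Figure D2:**
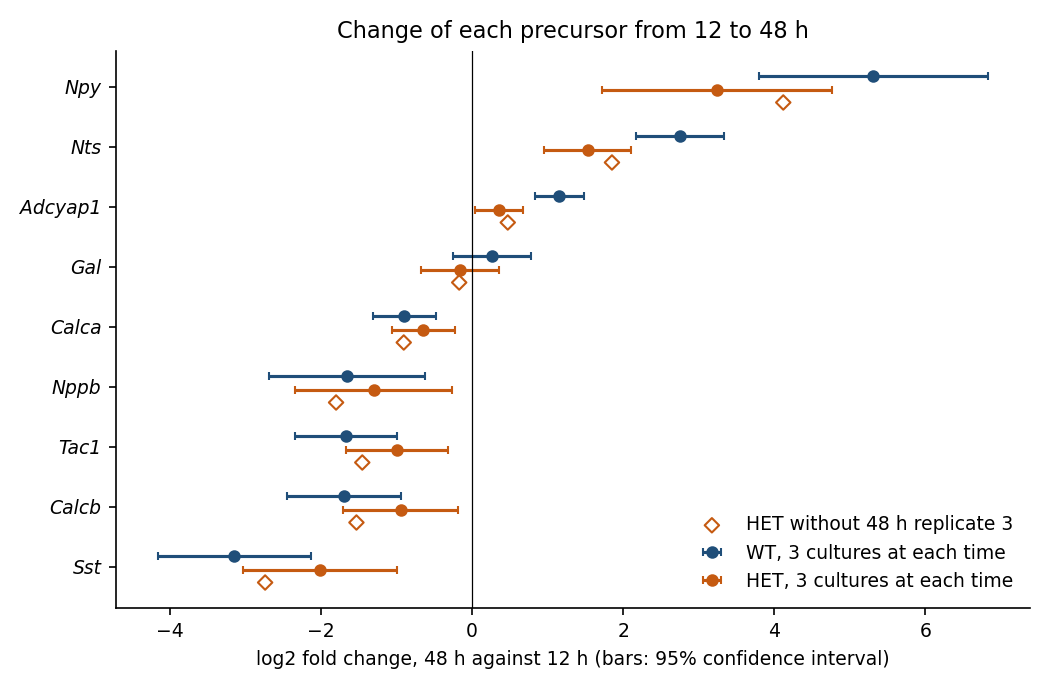
Log2 fold change from 12 to 48 h of each precursor with its 95% confidence interval, in WT (blue) and HET (orange), with open diamonds for HET when its 48 h replicate 3 is left out. Npy is highest in both genotypes (5.31 and 3.24) and Sst lowest (-3.15 and -2.01), and each diamond other than that of Gal lies nearer the WT value than the filled HET point.

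Compared per length, in FPKM, Calca was the most abundant of the precursors in each of the 6 groups, and the ranks below it changed with time. At 12 h in WT the order of mean levels was Calca at 985 ± 142 FPKM (SD, n = 3), Calcb at 206 ± 45.8, Tac1 at 204 ± 38.2, Adcyap1 at 159 ± 11.6, Gal at 35.2 ± 7.04, Nts at 28.0 ± 0.72, Sst at 7.35 ± 2.24, Nppb at 5.07 ± 1.25 and Npy at 0.98 ± 0.61. Calcb, Tac1 and Adcyap1 overlapped with their neighbours in that order, as did Sst and Nppb. At 48 h in WT, Calca was at 529 ± 83.7 FPKM, Adcyap1 came next at 354 ± 27.3 and Nts was at 195 ± 65.7, with no overlap among them. Tac1 at 65.8 ± 21.1, Calcb at 65.4 ± 24.2, Gal at 41.9 ± 6.18 and Npy at 38.3 ± 19.5 overlapped from neighbour to neighbour, and Nppb at 1.62 ± 0.52 and Sst at 0.80 ± 0.26 came last. In HET at 48 h, Calca was at 761 ± 262 FPKM, clear of Adcyap1 at 199 ± 27.2, while Adcyap1, Calcb at 177 ± 135, Tac1 at 154 ± 93.3 and Nts at 99.5 ± 38.1 overlapped from neighbour to neighbour. Replicate 3 set much of that spread: Calcb was at 333 FPKM there and at 91.6 and 106 in the other HET cultures, Tac1 was likewise above its other values, 92.4 and 108, and Nts was at 60.2 against 102 and 136.

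As a share of the summed FPKM of the 9 precursors, Calca went from 60.4% ± 1.64 at 12 h in WT to 40.9% ± 5.17 at 48 h (SD, n = 3). The share of Adcyap1 went from 9.82% ± 0.89 to 27.4% ± 1.64 and that of Nts from 1.74% ± 0.21 to 15.2% ± 5.13. In HET at 48 h, Calca held 52.5% ± 2.46, Adcyap1 14.9% ± 5.50 and Nts 7.66% ± 3.93. In HET replicates 1 and 2 alone, Calca held 49.8% and 53.3%, Adcyap1 19.4% and 16.7%, and Nts 9.57% and 10.3%. Ranges of these shares at 48 h did not overlap between WT and HET for any of these 3 genes. Shares of a sum depend on each other, so this says little about a single gene. The share of Gal also separated, with at least 2.97% in WT and at most 2.82% in HET, although its counts overlapped. The counts of Calca overlapped too, reaching 25611 in WT and starting at 21924 in HET. The sum itself was 1631 ± 234 FPKM at 12 h and 1292 ± 87.5 at 48 h in WT, and 1975 ± 240 and 1437 ± 436 in HET, where replicate 3 at 48 h was at 1919 and the others at 1067 and 1326.

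**Figure D3:**
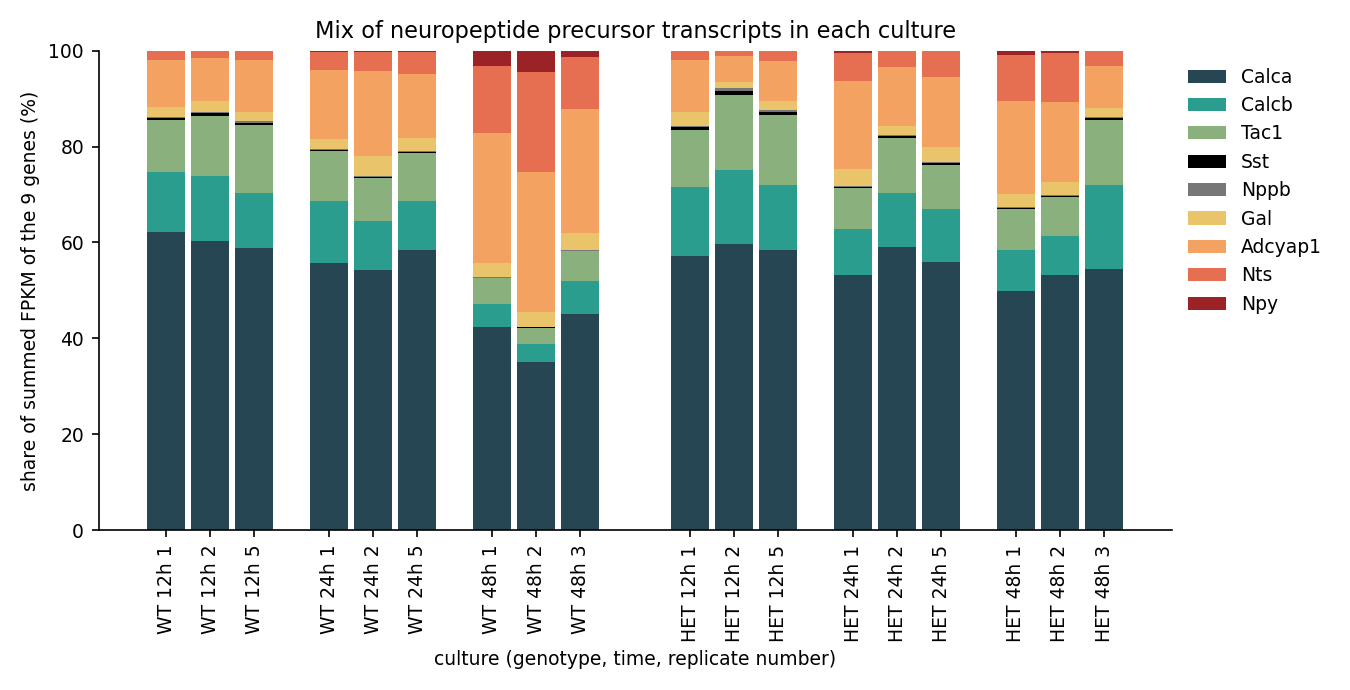
Share (%) of each precursor in the summed FPKM of the 9 genes, one bar per culture. In the WT cultures at 48 h, the bands of Adcyap1 (27.4% on average) and Nts (15.2%) are wider and that of Calca (40.9%) narrower than at 12 h, and HET 48 h replicate 3 resembles the bars at 12 h.

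At 48 h, whether precursors of either class were called different between the 2 genotypes depended on how replicates were treated. Calls also changed with the cultures kept and the normalization, and differed from those in the authors' deposited table. Same-numbered cultures deviated together at 48 h, so the fit that keeps the replicate number as a block is given beside the fit without it. That pairing was read from these same data and is not given by the titles. Without the block, 0 of 9 precursors passed (limma), as did 0% of all genes, while 7 of 9 had an unadjusted p under 0.05, against 22.0% of all genes. Dynlrb1, the targeted gene, thus did not pass either, at 5677 to 6372 normalized counts in WT and 3243 to 3482 in HET at 48 h. The lack of calls therefore does not show equal levels. With the block, 7 of 9 passed, against 12.3% of all genes (5.04% higher and 7.29% lower): Npy, Adcyap1 and Nts were lower in HET and Calca, Calcb, Tac1 and Sst were higher. Groups did not overlap for 5 of them, Npy, Adcyap1 and Nts (lower) and Tac1 and Sst (higher), against 24.0% of all genes (9.57% higher and 14.4% lower). The comparison uses the same WT 48 h cultures as the change over time in WT, so the 2 sets of values are not independent.

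For Npy the log2 fold change of HET against WT at 48 h was -2.93, or 0.131 of the WT level, the most negative of all genes tested. Its limma adjusted p was 0.0543 (SE 0.72), and 0.00278 with the block (SE 0.45). The differences within the pairs numbered 1, 2 and 3 were -1.95, -3.06 and -3.77. Any matching of the cultures would give a lower Npy in each pair, since the groups did not overlap. The difference was largest in the pair with the library that stood apart.

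For Adcyap1 the log2 fold change was -0.84, or 0.559 of WT (SE 0.15; adjusted p = 0.0502, and 0.00543 with the block), with pair differences of -0.65, -0.78 and -1.09. For Nts it was -0.999, or 0.500 of WT (SE 0.28; adjusted p = 0.0651, and 0.00143 with the block), with pair differences of -0.71, -0.99 and -1.30. The 3 WT cultures were above the 3 HET cultures for both genes. Gal had a log2 fold change of -0.33, with an interval from -0.85 to 0.19 (adjusted p = 0.453 without the block and 0.449 in the blocked fit).

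Among the resting peptides, Sst was higher in HET by 1.92 with the block (adjusted p = 0.0558 without it and 0.00515 with it), and its pair differences were 0.65, 2.10 and 3.01. Calcb was higher by 1.24 (adjusted p = 0.0748 and 0.00278) and Tac1 by 1.12 (adjusted p = 0.0714 and 0.00515), in 3 of 3 pairs each. For Tac1 any matching would give this, as its groups did not overlap. Calca was higher by 0.48 (adjusted p = 0.169 and 0.0340), with a difference of only 0.06 in pair 1. Nppb had a log2 fold change of 0.98 (adjusted p = 0.251 and 0.0998) and was lower in HET in pair 1, at -0.29. Of these 5 genes, Sst had the largest difference, and Nppb alone changed sign between pairs.

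The differences were smaller without the pair numbered 3. With the block and without that pair, 4 of 9 passed, against 3.83% of all genes: Npy at -2.51 (limma adjusted p = 0.0302) and Nts at -0.85 (adjusted p = 0.0133) were lower, and Calcb at 0.94 (adjusted p = 0.0233) and Sst at 1.38 (adjusted p = 0.0456) were higher. Adcyap1 was then at -0.72 (adjusted p = 0.0521) and Tac1 at 0.88 (adjusted p = 0.0518). In the fit without the block, leaving out HET 48 h replicate 3 gave -2.05 for Npy, -0.73 for Adcyap1, -0.68 for Nts, 0.65 for Calcb, 0.66 for Tac1, 1.20 for Sst, 0.22 for Calca, 0.48 for Nppb and -0.34 for Gal, with adjusted p-values of at least 0.251 among the 9. That fit called 6 without WT 48 h replicate 3, 6 without HET 48 h replicate 1 and 4 without HET 48 h replicate 2. Shares of all genes are not given for these reduced fits, so whether calls rose among all genes too cannot be seen from these counts. In the authors' deposited table, the FDR at 48 h was 0.00148 for Npy, 1.53e-04 for Adcyap1, 0.00805 for Nts, 0.00246 for Calcb, 0.00346 for Tac1 and 5.98e-04 for Sst, and 0.0820 for Calca, 0.117 for Nppb and 0.445 for Gal.

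**Figure D4:**
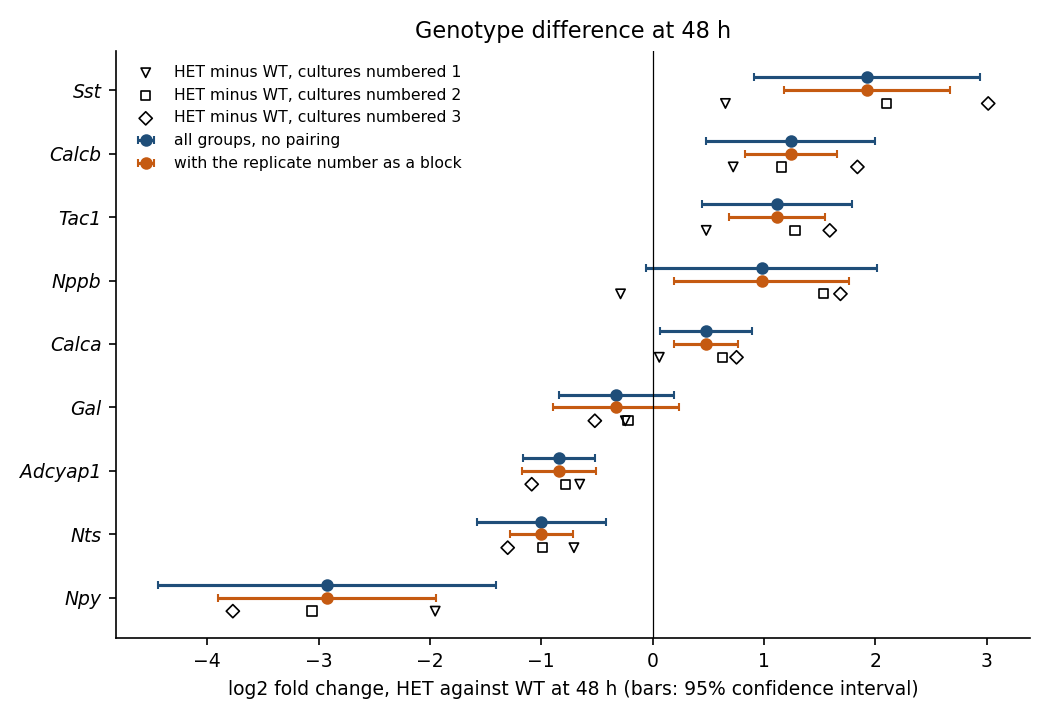
Log2 fold change of HET against WT at 48 h with 95% confidence intervals, without pairing (blue) and with the replicate number as a block (orange), and the difference within each same-numbered pair (open symbols). Intervals narrow with the block for Npy, Nts and the resting peptides, and the pair numbered 3 lies farthest from 0 for all 9 genes.

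No genotype difference was called at the earlier times. At 12 h 0 of 9 passed (limma; 0 at an unadjusted p under 0.05), against 0.00581% of all genes and 8.41% unadjusted, with log2 fold changes from -0.86 for Npy to 0.79 for Sst. At 24 h 0 of 9 passed (0 unadjusted), against 0.00581% of all genes and 1.15% unadjusted, with values from -0.16 for Npy to 0.43 for Sst. Averaged over the 3 times 0 of 9 passed, against 0.0174% of all genes, and 7 had an unadjusted p under 0.05 against 13.5% of all genes. The averaged values were -1.31 for Npy, -0.29 for Adcyap1, 0.25 for Calca, 0.57 for Calcb, 0.52 for Tac1, 1.05 for Sst and 0.61 for Nppb. With the block, 4 of 9 passed for the average, against 3.22% of all genes. Npy was lower (limma adjusted p = 0.0230) and Calcb, Tac1 and Sst were higher (adjusted p = 0.0220, 0.0319 and 0.0193). The blocked average also treats same-numbered cultures as pairs at 12 and 24 h. Their deviations there correlated at only r = -0.21 to 0.26, so these calls rest on an uncertain pairing. With the block and without the 48 h pair numbered 3, Calcb at 0.47 and Sst at 0.86 passed, against 1.73% of all genes. Without the block, leaving out HET 48 h replicate 3 gave averaged values of -1.02 for Npy, -0.25 for Adcyap1, 0.16 for Calca, 0.37 for Calcb, 0.37 for Tac1, 0.80 for Sst and 0.44 for Nppb.

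The test of whether the change from 12 to 48 h itself differed between genotypes called 0 of 9 precursors and 0% of all genes (limma). Adcyap1 and Nts had an unadjusted p under 0.05, against 8.92% of all genes. The difference, HET minus WT, was -0.80 for Adcyap1 (SE 0.21, adjusted p = 0.548) and -1.22 for Nts (SE 0.39, adjusted p = 0.548). For Npy the difference was -2.07 (95% interval -4.22 to 0.08, adjusted p = 0.558). For Sst it was 1.13 (interval -0.30 to 2.57), for Calcb 0.75 (-0.32 to 1.82), for Tac1 0.68 (-0.28 to 1.63), for Nppb 0.35 (-1.11 to 1.81), for Calca 0.25 (-0.34 to 0.84) and for Gal -0.42 (-1.15 to 0.31). Without HET 48 h replicate 3 most of these differences were smaller, at -1.19 for Npy, -0.68 for Adcyap1, -0.90 for Nts, 0.41 for Sst, 0.17 for Calcb and 0.21 for Tac1. Gal was then at -0.43, and Nppb at -0.15 and Calca at -0.0064 had changed sign.

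The genes whose pattern was most like that of a precursor, Calca not included, were found by the root-mean-square difference of mean-centred log2 values over the 18 samples, among 16134 genes. Calcb was nearest to Tac1 at 0.18, then Dkk3 and Nmb, and Tac1 was nearest to Tmem255a at 0.12, then Aqp1 and Dkk3. Nppb was also nearest to Tac1, at 0.32, followed by Gm525 and Cpn1, and Sst to Pde4c at 0.36, then Krt27 and Mlc1. Among those that rose, Npy was nearest to Uhrf1 at 0.72, then Krt19 and Ucn, Adcyap1 to Gtf2ird1 at 0.15, then Sepn1 and Dnmt1, and Nts to Angptl2 at 0.20, then Chrm4 and Wfdc3. Gal was nearest to Il17ra at 0.21, then Mesdc1 and Tada3, beside a spread of its own of only 0.33. Npy, with a spread of 2.13, had no gene as close as those of the other precursors listed.

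Other genes of the peptide system moved in both directions in WT from 12 to 48 h. Of all genes, 30.0% were called higher and 17.1% lower there. Among 26 measured other neuropeptide precursors, 7 rose and 4 fell, near those shares, with a median log2 fold change of -0.35. Ucn, the precursor of urocortin, rose by 4.01 (limma adjusted p = 1.67e-04), and Cck, that of cholecystokinin, rose by 2.28 (adjusted p = 3.08e-04). Adm2, a peptide related to adrenomedullin, fell by 1.48 (adjusted p = 0.0122), and Nmb, the precursor of neuromedin B, fell by 1.47 (adjusted p = 2.83e-04).

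Of 26 measured receptors and receptor partners of the 10 peptides, 4 rose and 4 fell (median -0.14). Of all genes, 30.0% rose and 17.1% fell. Ntsr1, a neurotensin receptor, rose by 1.58 (limma adjusted p = 0.0201), and Ramp1, the partner of the receptor for calcitonin gene-related peptide, rose by 1.35 (adjusted p = 0.0317). Galr1, a galanin receptor, fell by 2.92 (adjusted p = 2.88e-04), and Sstr4, a somatostatin receptor, fell by 1.49 (adjusted p = 0.00260). Both of those that rose were at low levels: Ntsr1 was at 17.5 ± 7.88 normalized counts at 12 h and Ramp1 at 7.95 ± 3.63 (SD, n = 3).

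Of 22 genes for peptide processing and dense-core vesicles, 7 rose and 11 fell (median -0.12), against 30.0% and 17.1% of all genes. Pcsk1, a prohormone convertase, rose by 0.98 (limma adjusted p = 1.21e-04), and Rab27a, a GTPase of vesicle release, rose by 0.91 (adjusted p = 0.0116). Scg3, a granin, fell by 1.21 (adjusted p = 6.83e-04), and Rab3a, a GTPase of synaptic vesicles, fell by 0.97 (adjusted p = 5.58e-05). Of 9 peptidases, 3 rose and 3 fell (median 0.06): Ecel1, an endopeptidase known from injured neurons, rose by 3.46 (adjusted p = 5.00e-05) and Nln, neurolysin, by 0.46 (adjusted p = 0.00518), while Mme, neprilysin, fell by 0.78 (adjusted p = 0.00572) and Ece2 fell by 0.61 (adjusted p = 6.82e-04). With the block at 48 h, 6 processing genes were higher and 4 lower in HET than in WT, against 12.3% of all genes called. Without the pair numbered 3 these counts were 3 and 1, against 3.83% of all genes.

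**Figure D5:**
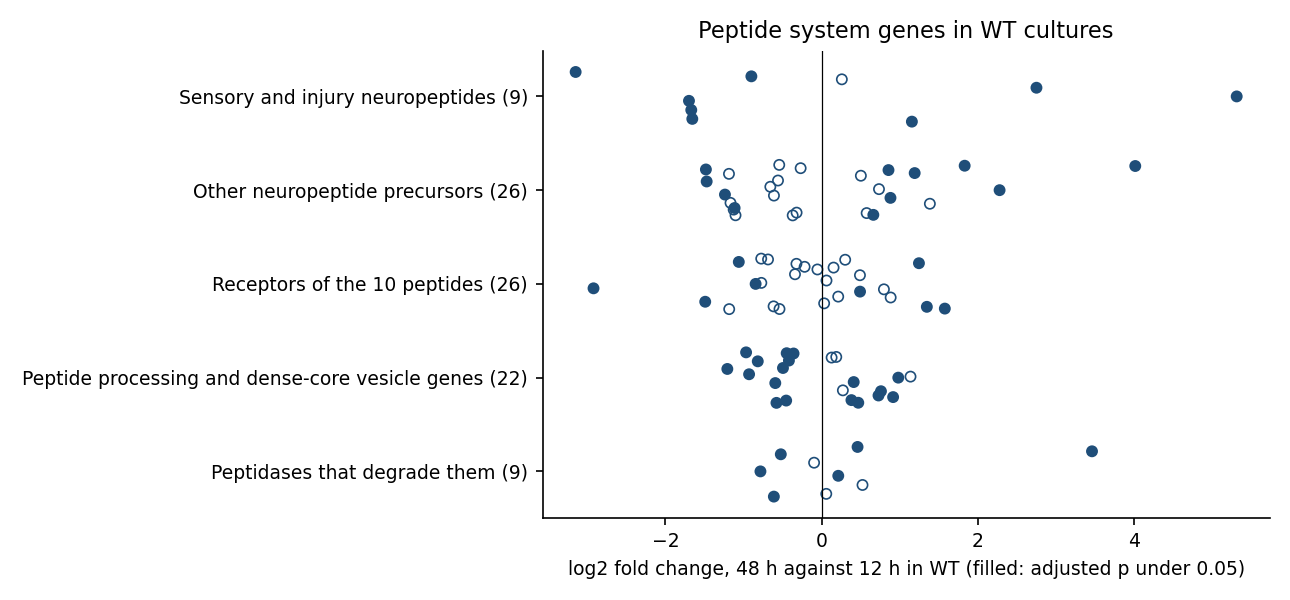
Log2 fold change from 12 to 48 h in WT of the 9 precursors and of 4 lists of related genes, one circle per gene, filled where the limma adjusted p was under 0.05. The 9 precursors reach from -3.15 to 5.31, and the receptors, processing genes and peptidases, with the exceptions of Galr1 and Ecel1, lie between -1.49 and 1.58.

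Markers of neuron classes and of other cells moved in the same cultures, and their part in the results was not tested. In WT from 12 to 48 h, 30.0% of all genes were called higher and 17.1% lower. Peptidergic nociceptor markers had 4 of 5 fall in WT from 12 to 48 h, among them Cnih3, which fell by 1.62 (limma adjusted p = 1.22e-04), and Kit, which fell by 1.43 (adjusted p = 2.23e-05). Their summed level went from 187 to 219 FPKM at 12 h to 100 to 132 at 48 h in WT, and was 132 to 186 in HET at 48 h. Itch neuron markers had 2 of 5 fall, where Il31ra fell by 2.71 (adjusted p = 7.05e-04) and Jak1 fell by 0.45 (adjusted p = 2.89e-04). Their sum was 87.7 to 101 FPKM at 12 h, 68.4 to 76.6 at 48 h in WT and 78.2 to 94.8 in HET at 48 h. All 3 markers of Mrgprd neurons, a class that makes few of these peptides, fell, and Mrgprd itself fell by 4.74 (adjusted p = 7.41e-05).

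Of 7 markers of injured neurons, 3 rose and 2 fell in WT from 12 to 48 h, against 30.0% and 17.1% of all genes. Sprr1a rose by 4.52 and Csrp3 by 3.75, while Jun fell by 0.62 and Flrt3 fell by 0.75. Among other cells, 4 of 8 glial markers fell and 1 rose, with a sum of 558 to 818 FPKM at 12 h and 237 to 284 at 48 h in WT. Of 5 fibroblast markers 3 rose, with a sum of 37.7 to 78.8 FPKM at 12 h and 90.7 to 134 at 48 h. Of 5 macrophage markers 1 rose and 1 fell, and 3 of 4 endothelial markers and 4 of 4 measured markers of neutrophils fell. Of 3 measured markers of enteric or spinal tissue 0 passed. None of these lists had its lowest gene at 0 FPKM. In HET against WT at 48 h without the block, no gene of these lists passed, as none did among all genes (limma). With the block, 5.04% of all genes were higher and 7.29% lower in HET. In that fit 4 of 5 peptidergic, 2 of 5 itch and 3 of 3 Mrgprd neuron markers were higher, beside the higher Calca, Calcb, Tac1 and Sst. Of the 12 DRG neuron markers 2 were higher and 1 lower, 2 of 7 markers of injured neurons were lower, glia, fibroblasts and macrophages had 1 lower marker each, and neutrophils had 1 higher. With the block and without the pair numbered 3, 3.83% of all genes passed. There 1 of 5 peptidergic, 0 of 5 itch and 3 of 3 Mrgprd neuron markers were higher. Beside these, 2 DRG neuron markers were higher, 1 marker of injured neurons was lower, and no marker of the other cells passed.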

How the data were processed

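RNA from 18 cultures was analysed from a single deposited table. Per the file headers, the authors gave normalized counts, a signal that is not raw counts, FPKM, and log2 fold changes with p-values for their own comparisons. CASAVA 1.8.2, edgeR and the build mm10 are named in the submitters' processing notes with no role. The aligner and counter are not given in the sources used here. Normalized totals ran from 41509705 to 41509874 per sample, so depth is unknown and no counting intervals were computed. Their precision rests on the 3 cultures per group. The 24 other per-sample columns were not used. The logarithms of the authors' second set of signal columns, called plain adjusted columns here, span 15 of 17 possible dimensions, so 2 directions among samples had been removed, by a method not given in the sources used here.

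Because the values are not counts, limma 3.58.1 in R 4.3.3 was used: lmFit and eBayes with trend on log2(normalized count + 1), all 18 samples, a coefficient per group (12 residual degrees of freedom), and Benjamini-Hochberg adjustment over 17198 genes with a threshold of 0.05. The pseudocount of 1 understates the changes of low genes. A minimum mean of 1 removed 0 genes, so all 9 measured members were tested. The script was tested on simulated data. Groups and replicate numbers came from the sample titles. Deviations from group means of same-numbered WT and HET cultures correlated across genes at r = 0.32, 0.21 and 0.46 at 48 h, all above 0.1, but at 0.19, 0.03 and 0.16 at 12 h and 0.11, -0.21 and 0.26 at 24 h. The numbers were therefore read as pairs at 48 h, but the blocked genotype fits hold a block for each number at 12 and 24 h too. The blocked comparisons over time match equal numbers across times within a genotype, where r ran from -0.20 to 0.36. Those blocked results rest on a pairing with less backing than at 48 h. The titles do not say what a number marks. No check for shared litters was possible. Named genes were the members, the 3 genes nearest to each by pattern among genes with a mean of at least 10, and in each list up to 2 called higher and 2 called lower with the largest change in WT from 12 to 48 h; the genes nearest to Calca are not reported here. Members and lists were chosen with earlier results of these data known. Gene positions and overlaps came from GENCODE on mm10; no annotated gene overlapped a member.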

Additional observations from a re-analysis of the deposited data

Results flagged for a closer look

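The fitted change of Gal from 12 to 48 h had opposite signs in the 2 genotypes, with all cultures included; without HET 12 h replicate 1 the HET change was 0.087, and the signs no longer differed. Measured from the group mean at 12 h, the 3 WT cultures at 48 h lay 0.04 to 0.47 higher on the log2 scale and the 3 HET cultures from -0.30 to -0.04. The difference between the changes, HET minus WT, was -0.42 (SE 0.35, limma adjusted p = 0.678), which did not pass the test.

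The change of Adcyap1 from 24 to 48 h also had opposite signs. The 3 WT cultures at 48 h lay 0.46 to 0.68 above the WT mean at 24 h, and the 3 HET cultures from -0.51 to -0.12 relative to the HET mean. The difference was -0.86 (SE 0.21, limma adjusted p = 0.180). Groups of 3 cultures are too small for the check on single outlying samples.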

How the results depend on the processing

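The count of called precursors in WT from 12 to 48 h was 7 to 8 with any culture left out. A pseudocount of 0.1 and a minimum mean of 5 changed no call. From 12 to 24 h in WT, 1 was called with the plain adjusted columns, 1 with quantile normalization, 1 when the removed directions were added as covariates, and 0 with any culture left out. Quantile normalization gave 3 in HET from 12 to 48 h and 1 for HET against WT at 48 h. Fitting only the groups compared gave 6 in HET from 12 to 24 h and 0 from 12 to 48 h. The replicate block gave 6 in HET from 12 to 24 h, 8 from 12 to 48 h and 5 from 24 to 48 h. Shares of all genes are not given for the blocked fits over time or the other alternatives listed here. Such counts show only how calls of the precursors shifted with processing. The block gave 7 for HET against WT at 48 h and 4 averaged over time, with the shares of all genes given above. Of the precursors called without the block, 0 were lost with it. Number 3 occurs only at 48 h, so replicate 3 adds nothing to any blocked comparison over time. The blocked HET counts up to 48 h thus do not use the HET library that stood apart. Npy from 12 to 48 h in HET was at 4.31 with the block. Alternatives chosen after seeing the data combined the block with the removed directions, which gave 6 in WT from 12 to 24 h, 1 in WT from 24 to 48 h, 8 in HET from 12 to 24 h, 8 from 12 to 48 h, 6 from 24 to 48 h, 6 for HET against WT at 48 h and 3 averaged; the block without the 48 h pair numbered 3 gave 4 at 48 h and 2 averaged. With a culture left out, counts ran from 4 to 7 in WT from 24 to 48 h, and in HET from 1 to 3 (12 to 24 h), 0 to 8 (12 to 48 h) and 0 to 3 (24 to 48 h), and from 0 to 6 for HET against WT at 48 h. Of the uncalled values that changed sign, Calcb from 12 to 24 h in WT was 0.032 with the removed directions, Nppb from 24 to 48 h in WT was 0.19 with the block and these directions, Gal from 24 to 48 h in WT ran from -0.30 to 0.070 with a WT culture left out (0.070 without WT 24 h replicate 2) and Gal from 12 to 48 h in HET ran from -0.36 to 0.087 with a HET culture left out (0.087 without HET 12 h replicate 1). The difference between genotypes in the change from 12 to 48 h ran from -0.20 to 0.85 for Nppb and from -0.0064 to 0.48 for Calca with a culture left out: Nppb was at -0.20 without HET 12 h replicate 1, and without HET 48 h replicate 3 Nppb was at -0.15 and Calca at -0.0064. The cause of these shifts was not tested. DESeq2 was not run, as the values are not counts. Depth is unknown, so its limits could not be given.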
